A study of Homo sapiens with 4 samples.

Results

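The transcripts described here come from 30 genes of cholesterol synthesis, its control by the sterol regulatory element-binding proteins (SREBPs), and sterol transport. They were chosen by name, and 29 of the 30 were found among the 31681 genes of the count table (*ABCG1* was not analysed here). RNA was measured in BT549 cells, an established line of triple-negative breast cancer, after sorting into cells with high and low levels of the surface protein neuropilin-2 (NRP2), which binds VEGF. There were 2 NRP2-high and 2 NRP2-low libraries, and the question was how the transcripts of the 2 populations differ. All 4 libraries came from the same parental line, no other treatment or genotype is given for them, and the gates of the sort are not described in the sources used here. Whether the libraries of a group were grown or sorted separately is not given in the sources used here, and the p-values below measure no more than the spread between these libraries, which may be technical.

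A cell makes cholesterol from acetyl-CoA, first through the mevalonate pathway to farnesyl diphosphate and then through squalene and lanosterol. When membrane sterol is low, SCAP escorts the SREBPs from the endoplasmic reticulum to the Golgi, where proteases release the part that enters the nucleus and switches on the synthesis genes. When sterol is plentiful, INSIG proteins hold SCAP and SREBP in the endoplasmic reticulum, and oxysterols that activate the liver X receptors (LXRs) raise efflux genes such as *ABCA1*.

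The libraries held between 18165923 and 20585102 counts, at which 3 counts corresponded to between 0.151 and 0.163 CPM (counts per 1e6 counts of the library, whose total was first scaled by TMM, the trimmed mean of M-values). *NRP2* had 2588 and 2839 counts in the NRP2-high libraries and 195 and 166 in the NRP2-low libraries, in the direction of the sort. The line's mesenchymal marker *VIM* had 24106 and 27183 counts in the NRP2-high libraries and 25640 and 23658 in the NRP2-low libraries. The epithelial markers *EPCAM* and *CDH1* had at most 5 counts in any library, and the leukocyte marker *PTPRC* at most 8. The endothelial marker *PECAM1* had 8 and 14 counts in the NRP2-high libraries and 1 and 1 in the NRP2-low libraries. *ERBB2* had 891 and 888 counts against 1058 and 926. Genes encoded in mitochondria took 6.92% and 9.16% of the counts in the NRP2-high libraries and 5.57% and 5.85% in the NRP2-low libraries. In bulk RNA of this kind, fewer cells with a transcript and less of it in each cell cannot be told apart.

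Most of the pathway was lower in NRP2-high cells. Of the 27 genes with enough counts to be tested, 21 (77.8%) were lower and 3 (11.1%) were higher in NRP2-high cells, and 3 did not pass an adjusted p of 0.05 (quasi-likelihood test of edgeR, adjusted by Benjamini and Hochberg). Over all 15083 tested genes, 27.7% were lower and 28.9% were higher. The median log2 fold change of NRP2-high over NRP2-low was -0.58 for the 27 genes, against -0.01 for all tested genes. Each of the 27 had at least 29 counts in every library, so that none was tested on the strength of the higher group alone. *INSIG1*, *SREBF1*, *TM7SF2* and all 8 tested genes of the mevalonate pathway were lower, and the 3 higher genes were *SC5D*, *SCAP* and *SQLE*, of which *SQLE* had a log2 fold change of -0.0044 on the deposited TPM. Against a fold change of 1.5, 12 of the 27 were lower and 0 were higher, and without the first NRP2-low library 21 were lower and 1 was higher. Over all 15083 tested genes, 1364 were lower and 1441 higher against a fold change of 1.5. Without the genes encoded in mitochondria and the 10 most abundant genes, 21 of the 27 were again lower and 3 higher.

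**Figure D1:**
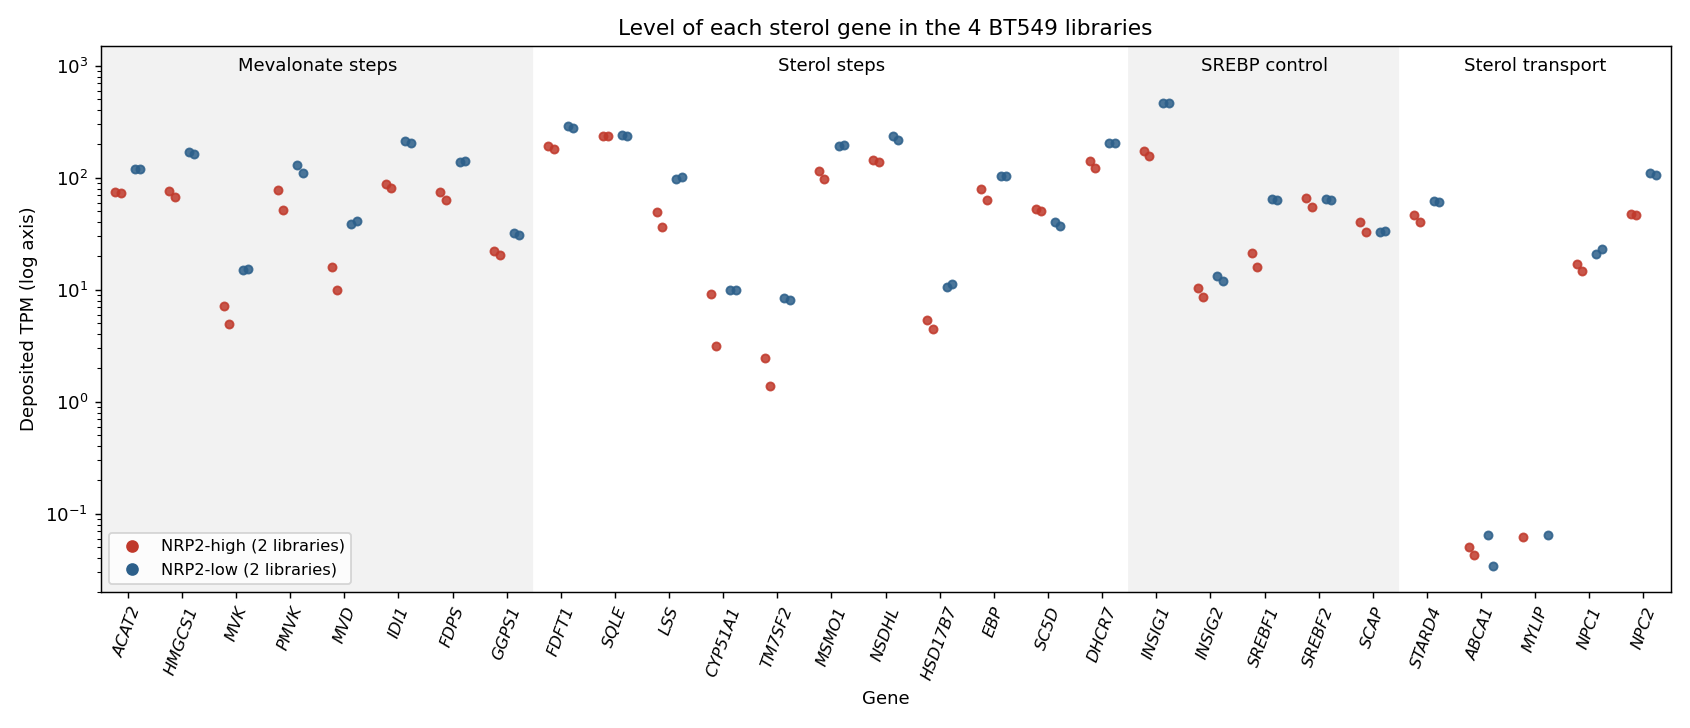
Deposited TPM (expression scaled for gene length and to the same sum in each library, on a log axis) of each gene in the 2 NRP2-high and the 2 NRP2-low libraries, with a point per library and the genes ordered by role (libraries at 0 are not drawn). *INSIG1* stood at 165 TPM in NRP2-high cells on average and 462 TPM in NRP2-low cells, and *SQLE* at 236.1 and 236.8 TPM.

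Sequences before a RefSeq transcription start of 5 of these genes are shown because together they cover the 3 outcomes of the test: *INSIG1*, *IDI1* and *HMGCS1* were lower in NRP2-high cells, *SREBF2* did not pass the test, and *SC5D* was higher. Each is the 250 bases before a RefSeq transcription start (assembly GRCh38.p14), written in the direction of the gene. In the count table each of these genes starts further upstream than the RefSeq start used, so that all 5 windows reach into the gene as counted and that of *SC5D* lies wholly inside it. Capitals mark every CCAAT box, the site of the factor NF-Y, read on either strand (ATTGG on the other), and in *SREBF2* also a TCACNCCAC match, the form of a sterol regulatory element to which SREBPs bind. *IDI1*, *HMGCS1* and *SC5D* have other RefSeq starts whose windows are not shown. CCAAT boxes numbered 0 at chr5:43313182-43313431 (*HMGCS1*), 0 at chr10:1056705-1056954 and 3 at chr10:1048887-1049136 (*IDI1*), and 1 at chr11:121292602-121292851 (*SC5D*). The windows shown are chr7:155297628-155297877 (plus strand) for *INSIG1*, chr10:1049120-1049369 (minus strand) for *IDI1*, chr5:43313413-43313662 (minus strand) for *HMGCS1*, chr22:41832855-41833104 (plus strand) for *SREBF2* and chr11:121292521-121292770 (plus strand) for *SC5D*.
INSIG1: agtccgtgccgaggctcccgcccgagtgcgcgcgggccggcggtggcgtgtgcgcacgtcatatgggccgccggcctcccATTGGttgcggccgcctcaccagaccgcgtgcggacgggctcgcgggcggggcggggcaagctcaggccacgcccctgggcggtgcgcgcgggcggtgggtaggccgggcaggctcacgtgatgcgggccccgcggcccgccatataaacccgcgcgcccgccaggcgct
IDI1: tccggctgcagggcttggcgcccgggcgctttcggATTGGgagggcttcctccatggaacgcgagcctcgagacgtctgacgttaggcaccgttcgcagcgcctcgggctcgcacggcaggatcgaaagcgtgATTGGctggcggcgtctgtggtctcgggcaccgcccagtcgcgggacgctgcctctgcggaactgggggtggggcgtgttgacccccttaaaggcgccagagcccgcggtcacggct
HMGCS1: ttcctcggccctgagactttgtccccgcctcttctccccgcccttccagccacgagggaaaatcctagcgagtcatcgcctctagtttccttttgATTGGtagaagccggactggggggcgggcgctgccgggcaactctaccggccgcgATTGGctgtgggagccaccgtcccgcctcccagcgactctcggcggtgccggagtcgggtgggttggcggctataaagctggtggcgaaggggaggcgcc
SREBF2: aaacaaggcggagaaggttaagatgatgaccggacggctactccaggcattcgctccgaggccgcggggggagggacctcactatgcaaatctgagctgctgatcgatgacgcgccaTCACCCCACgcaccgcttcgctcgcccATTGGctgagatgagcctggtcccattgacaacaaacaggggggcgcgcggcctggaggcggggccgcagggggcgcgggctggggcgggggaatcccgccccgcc
SC5D: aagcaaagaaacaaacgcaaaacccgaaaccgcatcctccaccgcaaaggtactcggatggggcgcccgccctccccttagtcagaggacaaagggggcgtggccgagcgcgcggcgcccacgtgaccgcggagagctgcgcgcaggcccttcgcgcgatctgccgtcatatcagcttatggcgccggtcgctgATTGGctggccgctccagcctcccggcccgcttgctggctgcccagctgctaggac

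A RefSeq start was given for 26 of the 30 genes, and a gene counted as holding a motif when any of its starts did. CCAAT was found in the windows of 19 of the 26 genes (73.1%), against 4203 of 10091 tested genes with a start (41.7%). The GC box GGGCGG, bound by Sp1, was found in those of 25 of 26 (96.2%), against 7576 of the 10091 (75.1%). TCACNCCAC was found in that of 1 of the 26 (3.85%), *SREBF2*, as TCACCCCAC 133 bases before the start, against 119 of the 10091 (1.18%). Both strands were read, and the shares over all 35116 starts of the table were 32.0% for CCAAT, 42.6% for GGGCGG and 0.883% for TCACNCCAC. Counted in the same way per start, the 35 starts of these genes gave 60%, 91.4% and 2.86%. Matches of different motifs could share bases, a match is a run of letters and not a measured site, and windows with none of these letters say nothing of SREBP binding.

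All 8 tested genes of the mevalonate pathway and its prenyl branch were lower in NRP2-high cells, against 27.7% of all tested genes. Their log2 fold changes were -1.47 to -0.41, with a median of -0.97. The CPM that follow are scaled by TMM, and errors are SD over 2 libraries. *ACAT2*, which joins acetyl-CoA molecules in the first step, had 1694 and 1924 counts in the NRP2-high libraries and 2782 and 2621 in the NRP2-low libraries (95.7 ± 4.97 against 139 ± 0.261 CPM, log2 fold change -0.54, standard error 0.06, adjusted p = 1.2e-05). *HMGCS1* (ENSG00000112972.14, chr5:43289395-43313493 in hg38, minus strand), the HMG-CoA synthase of the cytosol, had 1877 and 1933 counts in the NRP2-high libraries and 4307 and 3909 in the NRP2-low libraries (101 ± 1.74 against 212 ± 5.99 CPM, log2 fold change -1.07, standard error 0.05, adjusted p = 3.2e-08). The groups did not overlap for either gene, and the gap was larger than the spread within a group. How many of all tested genes separate in this way was not counted, so here and below such separation does not set these genes apart. *MVK*, mevalonate kinase, had 247 and 198 counts against 527 and 512 (11.8 ± 2.28 against 26.8 ± 0.533 CPM, log2 fold change -1.18, standard error 0.12, adjusted p = 1.1e-05). *PMVK*, the next kinase, had 523 and 409 counts against 891 and 727 (24.8 ± 5.21 against 41.7 ± 4.31 CPM, log2 fold change -0.75, standard error 0.13, adjusted p = 0.00041). *MVD*, the decarboxylase that makes isopentenyl diphosphate, fell furthest of the 8 and had 400 and 292 counts against 987 and 984 (18.4 ± 4.74 against 50.9 ± 1.94 CPM, log2 fold change -1.47, standard error 0.13, adjusted p = 3.5e-06). For all 3 the second NRP2-high library was the lowest of the 4 and both NRP2-low libraries were above both NRP2-high ones.

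*IDI1* (ENSG00000067064.11, chr10:1039152-1049170, minus strand) encodes the isomerase that turns isopentenyl into dimethylallyl diphosphate. It had 2006 and 2187 counts in the NRP2-high libraries and 4955 and 4558 in the NRP2-low libraries (111 ± 2.56 against 245 ± 4.61 CPM, log2 fold change -1.15, standard error 0.05, adjusted p = 1.6e-08). *FDPS*, farnesyl diphosphate synthase, had 1464 and 1449 counts against 2760 and 2666 (77.2 ± 3.50 against 140.1 ± 2.21 CPM, log2 fold change -0.86, standard error 0.06, adjusted p = 3.7e-07). *GGPS1*, on the side branch that makes geranylgeranyl diphosphate for protein prenylation, changed least and had 446 and 478 counts against 659 and 604 (24.5 ± 0.268 against 32.6 ± 0.695 CPM, log2 fold change -0.41, standard error 0.08, adjusted p = 0.0011). The 4 libraries of each gene again separated by group. Some of these genes overlap others on the genome: *MVK* overlaps *MMAB* on the opposite strand (log2 fold change -0.97, 188 and 213 counts against 439 and 366), *ACAT2* overlaps *TCP1* (9805 and 10219 against 9577 and 9105 counts) and *GGPS1* overlaps *ARID4B* and *TBCE*. The strand setting of the counting is not given in the sources used here, so reads of such pairs may not have been told apart.

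The later steps, from farnesyl diphosphate to cholesterol, were lower in NRP2-high cells for 8 of 11 genes (72.7%), with a median of -0.52. Over all tested genes, 27.7% were lower. *FDFT1*, squalene synthase, had 5293 and 5816 counts in the NRP2-high libraries and 8080 and 7473 in the NRP2-low libraries (294 ± 8.40 against 401 ± 5.995 CPM, log2 fold change -0.45, standard error 0.05, adjusted p = 1.8e-05). *LSS*, which closes the rings of lanosterol, had 1897 and 1622 counts against 3792 and 3797 (93.4 ± 13.9 against 196 ± 8.08 CPM, log2 fold change -1.07, standard error 0.08, adjusted p = 1.4e-06). Both genes had their NRP2-high libraries below their NRP2-low libraries. Between them stands *SQLE*, squalene epoxidase, with 5359 and 6290 counts against 5574 and 5177 (308 ± 23.1 against 277 ± 3.32 CPM, log2 fold change 0.15, standard error 0.06, adjusted p = 0.045). Its small rise rested on the scaling and on single libraries. It did not pass without the second NRP2-high library (log2 fold change 0.07), without the first (0.15) or the second NRP2-low library (0.14), or by DESeq2 (0.16, adjusted p = 0.069), and it was 0.04 with no scaling beyond the total and -0.0044 on the deposited TPM. By TPM, *SQLE* had 236 and 236 TPM in the NRP2-high libraries and 239 and 235 TPM in the NRP2-low libraries, so both NRP2-high libraries lay between the NRP2-low ones. It was the most abundant of the 29 genes in NRP2-high cells by TPM and came after *INSIG1* and *FDFT1* in NRP2-low cells.

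*TM7SF2*, a sterol reductase of the endoplasmic reticulum, had the lowest fold change of all 27 genes, at 44 and 29 counts in the NRP2-high libraries and 157 and 140 in the NRP2-low libraries (1.95 ± 0.636 against 7.66 ± 0.312 CPM, log2 fold change -1.98, standard error 0.21, adjusted p = 1.6e-05). It overlaps *VPS51* on the same strand, which had 811 and 604 counts against 793 and 767. *TM7SF2* ranked 27 of the 29 genes by TPM in both groups, with means of 1.91 against 8.26 TPM. *LBR*, among the further synthesis and uptake genes below (3 higher and 4 lower), had means of 128 against 120 TPM. It was called higher (log2 fold change 0.24). *MSMO1*, the sterol methyl oxidase, had 1756 and 1733 counts against 3015 and 2876 (92.5 ± 4.38 against 152 ± 1.05 CPM, log2 fold change -0.72, standard error 0.06, adjusted p = 1.3e-06). *NSDHL*, which acts after it in removing the same methyl groups, had 1530 and 1699 counts against 2535 and 2203 (85.4 ± 3.08 against 122 ± 7.20 CPM, log2 fold change -0.52, standard error 0.06, adjusted p = 3.5e-05). *HSD17B7*, the ketosteroid reductase that completes this removal, had 135 and 131 counts against 275 and 278 (7.05 ± 0.418 against 14.3 ± 0.685 CPM, log2 fold change -1.02, standard error 0.12, adjusted p = 3.6e-05). *TM7SF2*, *MSMO1*, *NSDHL* and *HSD17B7* had both NRP2-high libraries below both NRP2-low ones, a separation not counted over all tested genes. *EBP*, the sterol isomerase, had 999 and 935 counts against 1349 and 1267 (51.3 ± 4.35 against 67.5 ± 0.274 CPM, log2 fold change -0.40, standard error 0.07, adjusted p = 0.00069), and *DHCR7*, which makes cholesterol from its dehydro precursor, had 3101 and 3117 counts against 4637 and 4387 (165 ± 5.67 against 233 ± 0.255 CPM, log2 fold change -0.50, standard error 0.05, adjusted p = 9.4e-06).

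*SC5D* (ENSG00000109929.9, chr11:121292453-121308630, plus strand), the lathosterol oxidase that acts between *EBP* and *DHCR7*, went the other way and was the gene with the largest rise of the 27. It had 1549 and 1732 counts in the NRP2-high libraries and 1205 and 1046 in the NRP2-low libraries (86.8 ± 3.55 against 58.04 ± 3.47 CPM, log2 fold change 0.58, standard error 0.07, adjusted p = 2.5e-05). Both NRP2-high libraries were above both NRP2-low ones, also by TPM, with 52.7 and 50.3 TPM in the NRP2-high libraries and 39.97 and 36.7 TPM in the NRP2-low libraries. *CYP51A1*, the lanosterol demethylase, had 174 and 69 counts against 192 and 183 (6.51 ± 4.18 against 9.68 ± 0.0613 CPM, log2 fold change -0.58, standard error 0.31, adjusted p = 0.13). The first NRP2-high library stood near the NRP2-low ones and the second far below them. The log2 fold change was -1.44 without the first, where it passed, and -0.03 without the second. Its processed pseudogenes *CYP51A1P2* (55 and 72 counts against 57 and 34) and *CYP51A1P1* (37 and 36 against 47 and 41) were counted separately, and reads shared with them may make the value of *CYP51A1* uncertain. *HSD17B7P2*, a copy of *HSD17B7*, had 15 and 15 counts against 30 and 16.

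**Figure D2:**
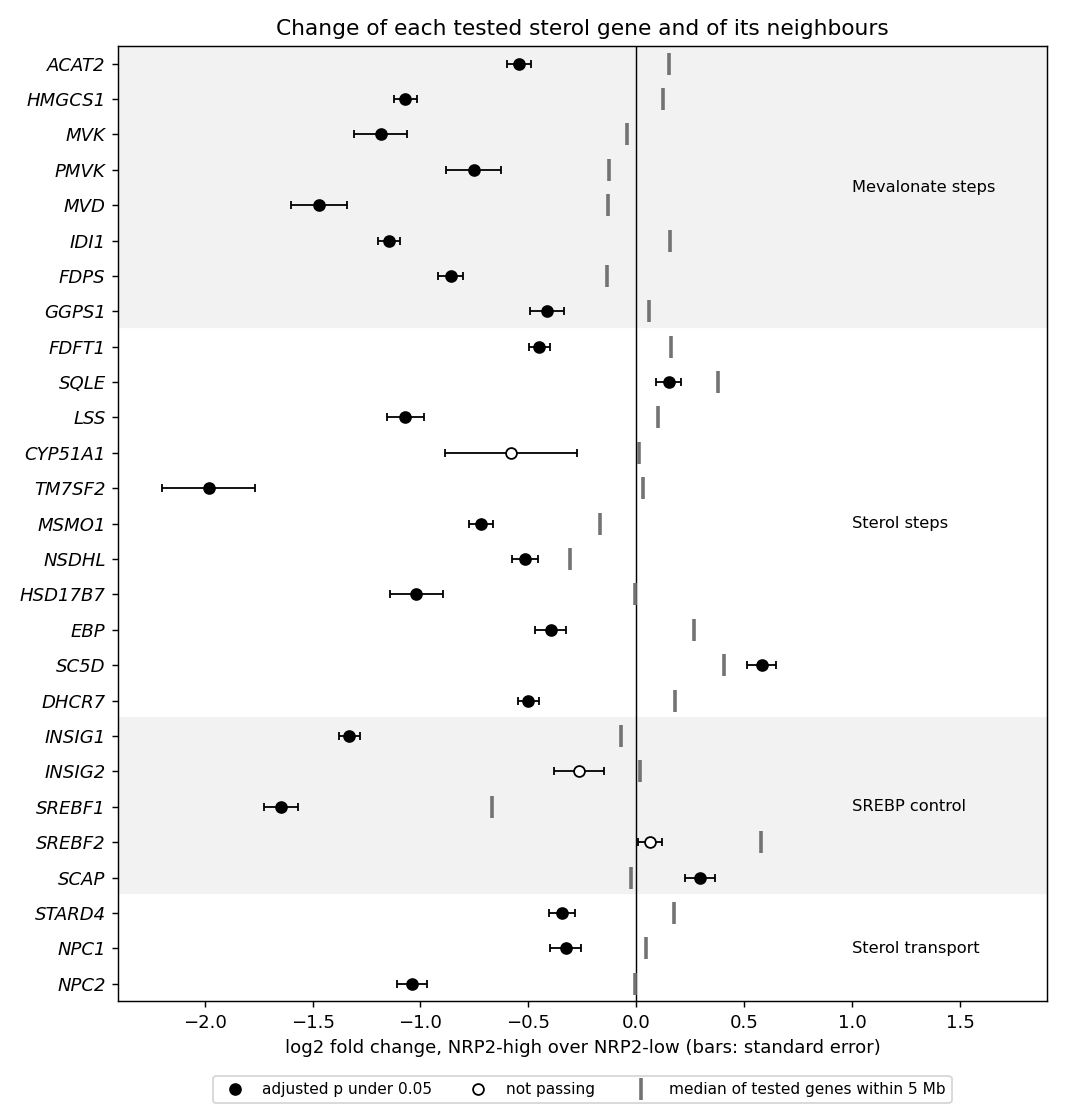
Log2 fold change of NRP2-high over NRP2-low for each of the 27 tested genes with its standard error as a bar, filled where the adjusted p was under 0.05, and the median of the tested genes within 5 Mb as a grey tick. Values ran from -1.98 for *TM7SF2* to 0.58 for *SC5D*, and 25 of the 27 points lay left of their own tick.

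Of the 5 genes that control SREBP, 2 were lower (40%), 1 was higher (20%) and 2 did not pass (median -0.27). These shares stand beside 27.7% lower and 28.9% higher over all tested genes. *INSIG1* (ENSG00000186480.12, chr7:155297776-155310233, plus strand), itself an SREBP target, had 3356 and 3533 counts in the NRP2-high libraries and 9101 and 8665 in the NRP2-low libraries (182 ± 0.312 against 459 ± 2.55 CPM, log2 fold change -1.33, standard error 0.05, adjusted p = 3.1e-09). It was the most abundant of the 29 genes by TPM in NRP2-low cells and came after *SQLE* and *FDFT1* in NRP2-high cells, and its adjusted p ranked 160 among the 15083 tested genes. *INSIG2*, which does the same work, had 217 and 208 counts against 281 and 244 (11.3 ± 0.766 against 13.5 ± 0.806 CPM, log2 fold change -0.27, standard error 0.12, adjusted p = 0.071). Its NRP2-high libraries were both below its NRP2-low libraries, by an amount that did not pass, though it passed without the first NRP2-high library (-0.33), with no scaling beyond the total (-0.38) and on log2 FPKM (-0.28).

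*SREBF1* (chr17:17810399-17836987, minus strand), which encodes SREBP-1, and *SREBF2* (chr22:41833079-41907307, plus strand), which encodes SREBP-2, the main activator of the synthesis genes, gave different values. *SREBF1* had 893 and 785 counts in the NRP2-high libraries and 2798 and 2605 in the NRP2-low libraries (44.5 ± 5.74 against 139 ± 1.43 CPM, log2 fold change -1.65, standard error 0.08, adjusted p = 2.6e-08). *SREBF2* had 2606 and 2552 counts in the NRP2-high libraries and 2621 and 2447 in the NRP2-low libraries (137 ± 7.22 against 131 ± 1.08 CPM, log2 fold change 0.06, standard error 0.06, adjusted p = 0.36). Both NRP2-low libraries of *SREBF1* were far above both NRP2-high ones, while the 4 libraries of *SREBF2* overlapped in counts. On the opposite strand, *SREBF1* overlaps *RAI1* (586 and 499 counts against 770 and 751) and *SREBF2* overlaps *SREBF2-AS1* (118 and 126 against 72 and 73). Reads of these pairs, too, may not have been told apart. By TPM, *SREBF2* had 65.3 and 54.6 TPM in the NRP2-high libraries and 64.03 and 63.2 TPM in the NRP2-low libraries, and its log2 fold change ranged over the settings tried between -0.09 and 0.12 and passed without the second NRP2-high library only. *SCAP*, the escort, had 1376 and 1292 counts against 1138 and 1096 (70.8 ± 5.84 against 57.7 ± 0.790 CPM, log2 fold change 0.29, standard error 0.07, adjusted p = 0.0045). Its rise kept its sign but did not pass with no scaling beyond the total (0.19), on log2 TPM (0.14 with either pseudocount), on log2 FPKM (0.17) or without the first NRP2-low library (0.27).

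The 3 tested transport genes were all lower in NRP2-high cells, with a median of -0.35, against 27.7% lower over all tested genes. *NPC2*, the soluble lysosomal protein that hands cholesterol to NPC1, had 685 and 795 counts in the NRP2-high libraries and 1632 and 1486 in the NRP2-low libraries (39.1 ± 2.63 against 80.4 ± 2.09 CPM, log2 fold change -1.04, standard error 0.07, adjusted p = 3.8e-07). *NPC1*, the membrane protein that then exports it, had 904 and 919 counts against 1149 and 1196 (48.3 ± 1.28 against 60.6 ± 4.16 CPM, log2 fold change -0.33, standard error 0.07, adjusted p = 0.0024), and did not pass without the second NRP2-low library (-0.26). *STARD4*, a sterol carrier of the cytosol that SREBP-2 induces, had 1404 and 1406 counts against 1903 and 1761 (74.5 ± 2.76 against 94.6 ± 1.38 CPM, log2 fold change -0.35, standard error 0.06, adjusted p = 0.00046). *NPC2* had the largest fall of the 3. On the opposite strand, *NPC2* overlaps *ISCA2* (225 and 201 counts against 301 and 245) and *NPC1* overlaps *RMC1* (341 and 376 against 456 and 409). The LXR targets *ABCA1* and *MYLIP* were near 0 counts. The cholesterol exporter *ABCA1* had 3 and 3 counts in the NRP2-high libraries and 4 and 2 in the NRP2-low libraries, and *MYLIP*, a ubiquitin ligase that lowers lipoprotein uptake, had 1 and 0 against 0 and 1. No difference in these 2 genes was detectable at this depth.

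The levels of the genes of a role were also added up as TPM, which are scaled for gene length. The mevalonate genes summed to 435.1 and 370.4 TPM in the NRP2-high libraries and 850.2 and 823.6 TPM in the NRP2-low libraries (403 ± 45.7 against 837 ± 18.8, log2 ratio -1.06). The later synthesis genes summed to 1028 and 931.6 TPM against 1428 and 1401 TPM (log2 ratio -0.53). All 19 synthesis genes together summed to 1463 and 1302 TPM in the NRP2-high libraries and 2278 and 2224 TPM in the NRP2-low libraries (1382 ± 114 against 2251 ± 37.6). On this scale the NRP2-high sum was 0.614 times the NRP2-low sum. The median of all tested genes was itself -0.14 on log2 TPM with a pseudocount of 1, against -0.01 by edgeR. Summed as CPM the difference was smaller, as given at the end. For the SREBP control genes the sums were 311.4 and 268.1 TPM against 634.4 and 634.9 TPM. Most of that difference was *INSIG1*, with means of 165 TPM in NRP2-high and 462 TPM in NRP2-low cells. *SREBF1* stood at 18.4 against 63.8 TPM, *SREBF2* at 60.0 against 63.6 TPM and *SCAP* at 36.5 against 32.9 TPM. For the transport genes the sums were 111.0 and 101.6 TPM against 192.5 and 189.1 TPM, mostly through *NPC2* (means of 47.0 against 108 TPM). In each sum both NRP2-high libraries were below both NRP2-low ones, which with 2 against 2 gives a two-sided exact permutation p of 0.333, the smallest this design allows. The second NRP2-high library had a lower TPM than the first in 26 of the 27 genes, and a lower CPM in 19 of them. The second NRP2-low library had a lower TPM than the first in 17. The same shares over all tested genes were not counted, so these numbers do not set the 27 genes apart from the rest of a library.

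**Figure D3:**
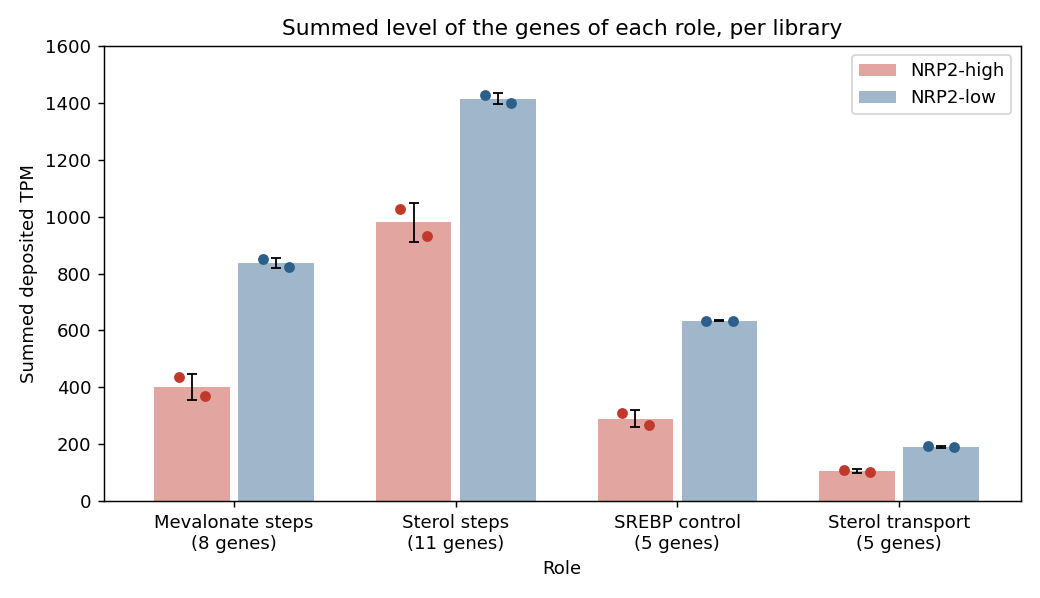
Summed deposited TPM of the genes of each role, with a bar for the mean of each group and a point for each library. The mevalonate genes stood at 403 TPM in NRP2-high cells and 837 TPM in NRP2-low cells, and the bars of every role were lower for NRP2-high cells.

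The 27 genes lie on 18 chromosomes. Each gene was set beside the median of all tested genes that start within 5 Mb of it, a comparison chosen after the values were seen. Of the 27 genes, 25 (92.6%) were below the median of their neighbours, against 49.8% of the 15077 tested genes with neighbours, and the median difference was -0.66 on the log2 scale. The exceptions were *SC5D* (0.17 above) and *SCAP* (0.32 above). *SREBF1* lay in a stretch that was itself lower in NRP2-high cells (median -0.67 over its 100 neighbours) and was a further -0.98 from it. *SREBF2* lay in one that was higher (median 0.58), so that it was -0.51 from its neighbours while its own change did not pass. The neighbours of *SC5D* had a median of 0.41, and those of *SQLE* 0.38.

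Other genes of the same pathways, listed by name, did not share one direction. The counts of each list that follows stand beside 27.7% lower and 28.9% higher over all tested genes. Of 8 further genes of cholesterol synthesis and uptake, 3 were higher and 4 lower (median -0.31). *SCARB1*, the receptor for high-density lipoprotein, had 2149 and 2145 counts against 1218 and 1158 in NRP2-low cells (log2 fold change 0.89, adjusted p = 3.5e-07), *ACAT1*, the mitochondrial thiolase, changed by 0.59, and *LRP8*, a lipoprotein receptor, by -0.44. Of 9 genes that process SREBP or turn over its partners, 4 were higher and 2 lower (median 0.12). *MBTPS2*, the protease that makes the second cut of SREBP, had 2618 and 2747 counts against 1053 and 964 in NRP2-low cells (log2 fold change 1.45, adjusted p = 5.6e-09). *UFD1*, which helps to extract proteins from the endoplasmic reticulum, changed by 1.10 and *RNF139*, a membrane protein of the endoplasmic reticulum, by 0.56. Genes within 5 Mb of *MBTPS2* were themselves higher, with a median of 0.90 over 31 tested neighbours that leaves a difference of 0.55. Those near *UFD1* had a median of 0.62, those near *ACAT1* 0.42, those near *RNF139* 0.35 and those near *SCARB1* 0.30. This leaves differences of 0.17 for *ACAT1*, 0.22 for *RNF139* and 0.59 for *SCARB1*. The neighbours of *LRP8* had a median of -0.04.

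Of 11 lipogenic genes that SREBP-1 activates, 7 were lower and 2 higher in NRP2-high cells, with a median of -0.99. *FADS2*, a fatty acid desaturase, had 3791 and 3768 counts against 16371 and 15460 in NRP2-low cells (log2 fold change -2.04, adjusted p = 3.9e-10). *SCD*, stearoyl-CoA desaturase, had 20115 and 20557 counts against 80410 and 76936 (log2 fold change -1.91, adjusted p = 8.9e-10), and *LPIN1*, a phosphatidate phosphatase, changed by -1.40. Both desaturases had about the same counts in both libraries of a group.

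Among 9 tested genes of the LXR and efflux list, 2 were higher, 1 was lower and 6 did not pass (median 0.10). The lower gene was the lipid transporter *ABCA2* (-0.66), and the higher ones were *RXRA*, the partner of LXR (0.27), and *PLTP*, phospholipid transfer protein (0.30). Of 15 genes of sterol trafficking and storage, 10 were higher and 3 lower (median 0.24). *GRAMD1B*, which carries cholesterol from the plasma membrane to the endoplasmic reticulum, had 70 and 105 counts in the NRP2-high libraries and 0 and 1 in the NRP2-low libraries, a ratio of 180 with an exact 95% interval, for counting error alone, of 31.8 to 7130. *SCP2*, sterol carrier protein, changed by 0.45 and *LIPA*, the lysosomal acid lipase, by -0.48. *GRAMD1B* passed the filter on counts through its NRP2-high libraries alone. *GRAMD1C*, 1 of the 3 lower genes, had 5 and 0 counts against 15 and 25 and passed it through its NRP2-low libraries alone. Both are in the counts of this list, and their calls are not separate from that filter. The count of higher genes in this list rested on the scaling, with 6 of 15 higher with no scaling beyond the total and on log2 FPKM, and 3 on log2 TPM with either pseudocount. *RXRA* (0.11 at the lowest scaling) and *PLTP* (0.14) did not pass with no scaling beyond the total, on log2 TPM or on log2 FPKM.

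Of 12 genes that use the isoprenoids made by the pathway, 2 were higher (16.7%), 3 lower (25%) and 7 did not pass (median -0.13). These shares stand beside 28.9% higher and 27.7% lower over all tested genes. *ICMT*, which methylates prenylated proteins, was at 0.43 and *NUS1*, of dolichol synthesis, at 0.25. *RABGGTB*, a subunit of the enzyme that prenylates Rab proteins, was at -0.22. On log2 TPM the higher ones did not pass, and *NUS1* was at 0.10 under the lowest scaling. Of the oxysterol enzymes, 2 were tested, and *CYP27A1*, the sterol hydroxylase of mitochondria, had 308 and 305 counts against 64 and 44 in NRP2-low cells (log2 fold change 2.54, adjusted p = 2.3e-07). Both NRP2-high libraries of *CYP27A1* held several times the counts of either NRP2-low library.

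**Figure D4:**
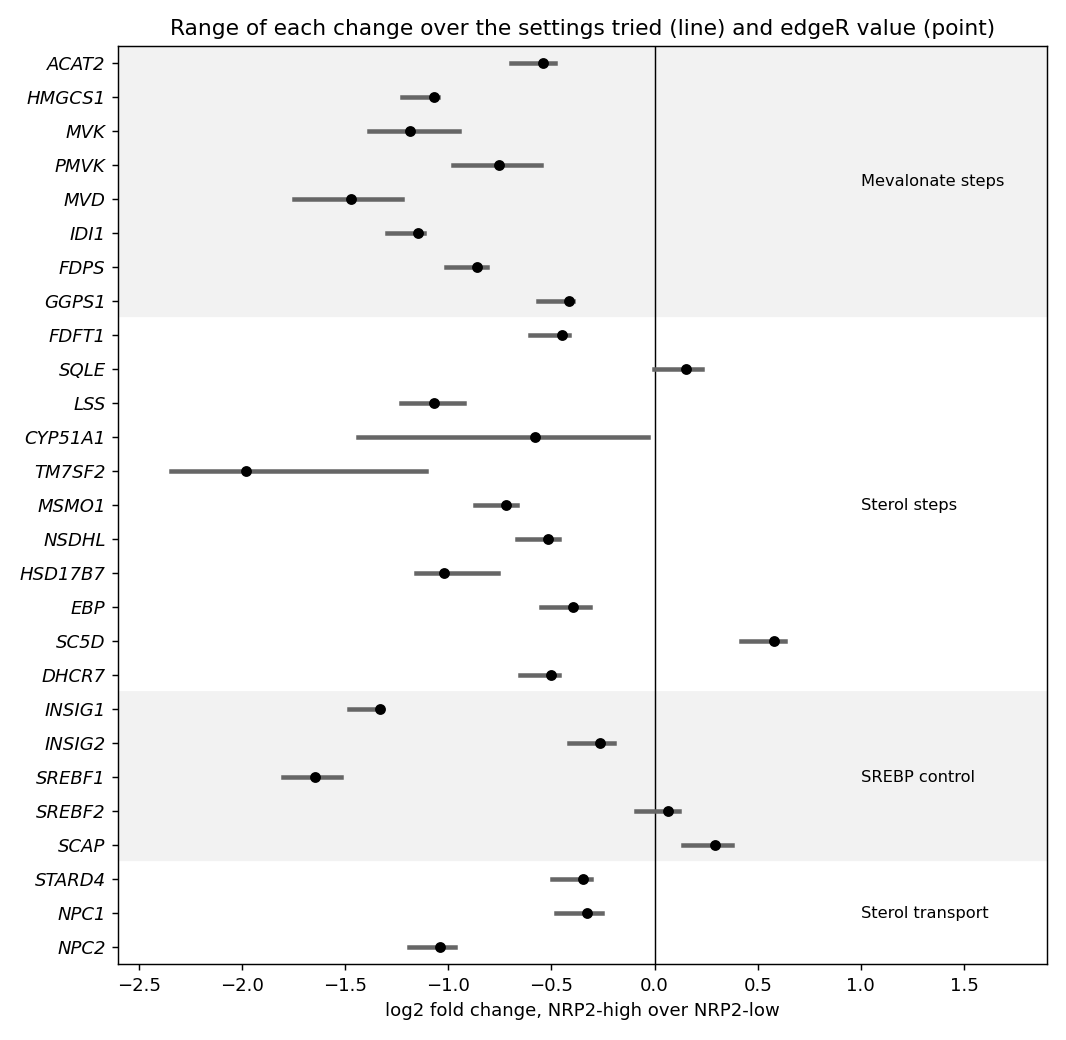
Range of the log2 fold change of NRP2-high over NRP2-low over the settings tried (line) with the edgeR value (point) for each tested gene. The ranges of *SQLE* (-0.0044 to 0.23) and *SREBF2* (-0.09 to 0.12) crossed 0, and that of *INSIG1* ran from -1.48 to -1.32.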

How the data were processed

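Strand-specific libraries of polyadenylated RNA were made by the authors, whose processing notes name STAR, featureCounts, DESeq2 and the build hg38. The deposited counts are fragments per gene and were used as deposited. The deposited TPM and FPKM were made by the authors from these counts and the gene lengths in the table. The counting strand and the annotation release are not given in the sources used here. The members and lists were chosen with earlier results of these data known. For 1 gene of the lists an older name was used, and 5 listed genes are not reported here.

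All 4 libraries were tested with edgeR 4.0.16 in R 4.3.3 (filterByExpr, TMM, quasi-likelihood test without covariates, Benjamini-Hochberg adjusted p under 0.05). Each standard error was derived from the log2 fold change and its F statistic, and the common biological coefficient of variation was 0.0502. Log2 CPM correlated with r of 0.995 and 0.997 within groups and of 0.948 to 0.950 between them. Every member is reported. Counts, CPM and statistics are given for called members with an absolute log2 fold change of at least 0.5, for members near 0 counts and for members whose call or direction changed under an alternative. Of each other list, up to 3 called genes with the smallest adjusted p are named, and *LBR* and *GRAMD1C* besides.

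Alternatives were DESeq2 1.42.0, limma-voom (limma 3.58.1), other scaling, filters and thresholds, log2 TPM and log2 FPKM with pseudocounts, a replicate block and each library left out. Deviations of libraries with the same number correlated at -0.00514, and no label says that a number marks a shared culture or sort. On simulated counts, of 50 genes changed at each size, edgeR called 36% of those changed 1.25-fold, 70% for 1.5-fold, 68% for 2-fold and 92% for a 4-fold change, with 11 false calls among 15083 genes. The simulation changed 200 genes, while 4354 were called higher and 4175 lower in the data. The adjustment is stricter with fewer changed genes, so these shares do not carry over to the data.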

Additional observations from a re-analysis of the deposited data

How the results depend on the processing

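Between 20 and 23 of the 27 genes were called lower in 16 settings, and 12 against a fold change of 1.5. The genes called higher were 3 in the main analysis, but 1 with no scaling beyond the total, 1 on log2 TPM with a pseudocount of 1 or 0.1, 1 on log2 FPKM, and 0 against 1.5-fold. *SQLE* reversed on log2 TPM (-0.0044 with a pseudocount of 1 and -0.0044 with 0.1). For the lists of other genes the scalings were compared after seeing the data. Of the single-gene values, 424 kept their call, 26 lost it, 7 gained it and 2 reversed. Over all tested genes, 2447 were called higher on log2 TPM with a pseudocount of 1, 2200 with 0.1 and 1441 against 1.5-fold, where 1364 were called lower. Those scalings moved the median of all genes from -0.01 to -0.12 with no scaling, -0.14 and -0.16 on log2 TPM and -0.07 on log2 FPKM, beside medians of -0.69, -0.75, -0.87 and -0.63 for the 27 genes, and the share of calls that were higher was 36.0% to 40.5% there, against 51.0%. Leaving out each library gave between 20 and 23 genes called lower, between 1 and 3 called higher (1 without the first NRP2-low library), 3320 to 4849 genes higher and 3061 to 4625 lower. With the replicate block, 22 of the 27 genes were called lower and 3 higher, and over all genes 4509 were higher and 4371 lower. The block added the call of *CYP51A1* (-0.63) and changed no other. On summed CPM in place of TPM the log2 ratios were -0.94 for the mevalonate, -0.37 for the later, -0.84 for the SREBP control and -0.54 for the transport genes, and -0.55 for all synthesis genes. Leaving out each library, chosen after seeing the data, was done on summed TPM. It gave log2 ratios of -1.18 to -0.94, -0.60 to -0.46, -1.24 to -1.03, -0.91 to -0.78 and -0.79 to -0.62 in the same order. The cause of these differences was not tested. Depth limits *ABCA1* and *MYLIP*, with at most 4 counts in any library.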
